A study of Mus musculus with 2 samples.

Results

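The genes described here are 10 genes of the cell's responses to amino acid shortage and to unfolded protein in the endoplasmic reticulum (ER): Atf4, Ddit3, Trib3, Asns, Psat1, Phgdh, Chac1, Xbp1, Hspa5 and Herpud1. They were measured in mouse embryonic stem cells on 2 Affymetrix 3' expression arrays. In 1 the RNA came from cells that overexpress the long noncoding RNA lincU, and in the other from control cells. A probe set, a group of short probes for 1 transcript, was taken where the platform annotation named it to one of these genes and to no other. By this rule 8 of the 10 genes were measured, on 16 of the 15273 probe sets named to a single gene, among 16994 probe sets in the table. Psat1 and Chac1 had no such probe set and were not measured. A further probe set, named to Phgdh together with another gene, was left out. Both arrays came from line 46C, an embryonic stem cell line with a GFP reporter in its Sox1 locus. The cells grew in 15% serum and 1000 U/ml LIF, a cytokine that keeps stem cells undifferentiated, on feeders that were taken away at harvest. Apart from the lincU overexpression the labels give both groups the same line and culture. The vector, its promoter and whether the overexpressing cells were 1 clone are not stated in the labels. The study asked what lies behind the phenotypes that lincU overexpression gives in these cells. With 1 array for either group there is no replicate check and no test, and every value below describes these 2 arrays.

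The integrated stress response begins when a kinase such as GCN2, which senses uncharged tRNA, or PERK, which senses unfolded protein in the ER, phosphorylates the translation initiation factor eIF2α. General translation falls while that of the Atf4 mRNA rises, and the ATF4 protein, a bZIP transcription factor, induces genes for amino acid synthesis and uptake, tRNA charging and feedback. The unfolded protein response has further branches: IRE1 splices the Xbp1 mRNA into the form that encodes the active transcription factor, and ATF6 is cut at the Golgi and moves to the nucleus, and both raise ER chaperones and the machinery that degrades misfolded ER proteins. Much of this control, in translation, splicing and protein cleavage, leaves no direct trace in the level of an mRNA at its 3' end. Mouse embryonic stem cells divide fast and depend on a steady supply of amino acids for it.

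The promoter letters through which these branches act are shown for the 3 measured stress genes whose 250 bases before the transcription start held a match. Sequences are from RefSeq, build GRCm38.p6, written 5′ to 3′ on the gene's strand, and capitals mark the matches. Asns carries TGATGNAA, the core of the C/EBP-ATF response element bound by ATF4 with C/EBP partners. Hspa5 carries the ER stress response element, CCAAT and CCACG with 9 bases between them, read by NF-Y and ATF6. Herpud1 carries the same TGATGNAA core, here on the opposite strand, and further on the ER stress response element II, ATTGG and CCACG with 1 base between them.
Asns promoter, chr6:7693210-7693459, minus strand: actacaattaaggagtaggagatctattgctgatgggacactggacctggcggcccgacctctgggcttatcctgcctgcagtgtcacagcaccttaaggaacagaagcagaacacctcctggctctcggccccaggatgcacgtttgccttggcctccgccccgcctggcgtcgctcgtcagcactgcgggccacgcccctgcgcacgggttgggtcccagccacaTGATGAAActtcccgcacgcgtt
Hspa5 promoter, chr2:34771840-34772089, plus strand: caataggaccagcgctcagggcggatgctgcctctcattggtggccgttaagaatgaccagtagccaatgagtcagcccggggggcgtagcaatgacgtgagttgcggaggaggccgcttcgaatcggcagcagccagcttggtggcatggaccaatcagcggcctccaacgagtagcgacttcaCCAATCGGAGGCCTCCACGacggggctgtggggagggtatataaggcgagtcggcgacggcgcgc
Herpud1 promoter, chr8:94386179-94386428, plus strand: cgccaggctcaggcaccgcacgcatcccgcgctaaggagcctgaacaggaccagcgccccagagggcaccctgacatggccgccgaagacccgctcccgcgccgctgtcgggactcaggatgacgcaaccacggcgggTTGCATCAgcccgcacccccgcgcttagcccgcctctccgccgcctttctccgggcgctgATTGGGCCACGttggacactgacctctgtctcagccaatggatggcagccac

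Both strands were searched for these motifs and for TGACGTGG, the unfolded protein response element bound by XBP1, whose letters can overlap the end of an ER stress response element. No 2 matches overlapped in the promoters of the 10 genes. Of 32851 promoters of this length, 3.45% held TGATGNAA, 0.113% the ER stress response element, 0.0304% the element II and 0.563% TGACGTGG. Chac1, which was not measured, also held a TGATGNAA core. The windows of the other 6 genes held none of the 4 motifs. Bases outside these windows and inexact matches were not searched. A match is a description of letters, and its use in these cells was not measured.

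In the overexpressing cells the asparagine synthetase gene Asns had the largest difference of the 8 measured genes, at 1.66-fold higher. The transcription factor gene Xbp1 was higher on 3 of its 4 probe sets, all 3 of types that can bind several transcripts, and level on the fourth. The regulators Atf4, Ddit3 and Trib3 all had lower signals, with log2 differences of -0.37, -0.45 and -0.36. Phgdh, an enzyme gene of serine synthesis, was slightly higher, the ER chaperone gene Hspa5 was nearly level, and Herpud1 differed in direction between its probe sets. Differences are log2 signal in overexpressing minus control cells. A gene took the value of its brightest probe set and was counted as differing from 1.5-fold on, a log2 difference of 0.58. It was called bright if its higher array was at or above the median of that array's named probe sets, 7.90 in overexpressing and 7.96 in control cells. All 8 measured genes were bright, 6 of them on both arrays, while Ddit3 and Trib3 were so through the control array alone. Of 5609 bright genes 4.65% passed 1.5-fold as higher and 6.69% as lower. These are 261 higher and 375 lower genes as deposited, and they were 320 and 302 with the array medians centred. Of the 8 stress genes 1, Asns, passed 1.5-fold as higher and none as lower. Their median log2 difference was -0.10, against 0.00 for all bright genes, and it was 0.05 with the probe sets of each gene averaged. At 2-fold, which 1.53% of bright genes passed as higher and 1.3% as lower, no stress gene was counted.

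The nearest thing to a repeated measurement is a gene read by more than 1 bright probe set, as 1732 genes were. Within such genes the log2 differences scattered with an SD of 0.23. With these genes divided into 4 equal groups by signal, the SD was 0.32 in the dimmest group, of mean log2 signal 7.45 to 9.24, and 0.16 in the brightest, of 11.31 to 14.97. It holds no variation between cultures. Of the 16 probe sets of the stress genes 11 were of a shared or mixed type, with names ending in _s_at, _x_at or _a_at, which can bind several transcripts.

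**Figure D1:**
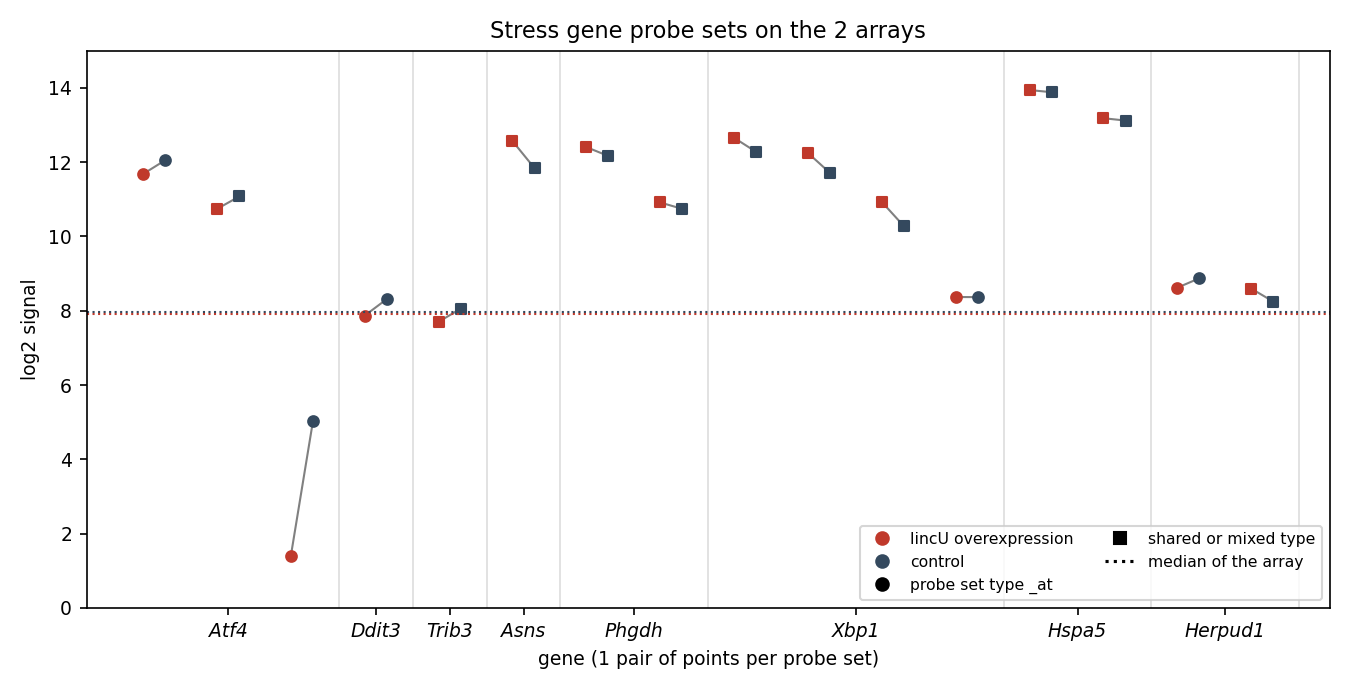
Log2 signal (vertical axis) of the 16 probe sets of the 8 measured stress genes, each with lincU overexpression (red) left of control (dark) and joined by a line. Squares are probe sets of shared or mixed type, circles those of type _at, and dotted lines the array medians. Asns slopes most among the bright pairs, at 12.57 against 11.83, and the Atf4, Ddit3 and Trib3 pairs slope the opposite way.

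Atf4 encodes the transcription factor at the head of the amino acid response. Its brightest probe set, 1448135_at, had a log2 signal of 11.68 in overexpressing and 12.05 in control cells, a difference of -0.37. A second, of mixed type, had 10.74 in overexpressing and 11.08 in control cells, a difference of -0.33. The 2 probe sets differed from each other by 0.036, and each was lower in overexpressing cells by more than the within-gene SD of 0.16 at this signal. The other probe set stood below the floor of the 25th percentile on each array, at 1.41 in overexpressing and 5.04 in control cells, and gives no difference. With all bright genes divided into 4 groups by mean signal, Atf4 fell in the brightest. Of the 1402 genes in that group 11.8% differed by as much in either direction, and 4.99% were as low as Atf4 or lower. Because ATF4 is made through translation of a standing mRNA, this mRNA level is not a measure of the protein.

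Ddit3 encodes CHOP, a bZIP factor induced by ATF4 and known for its role in cell death under lasting ER stress. Its only probe set, 1417516_at, had 7.87 in overexpressing and 8.32 in control cells, a difference of -0.45, or 1.36-fold lower. Trib3 encodes a pseudokinase that is induced by ATF4 and CHOP and feeds back on them. Its only probe set, 1426065_a_at, of mixed type, had 7.70 in overexpressing and 8.06 in control cells, a difference of -0.36. Both differences were only a little larger than the within-gene SD of 0.32 among dim probe sets. Both genes lay near the array medians, where differences of this size are common: in the dimmest of the 4 groups of bright genes 34.2% differed by as much as Ddit3 and 44.4% by as much as Trib3, in either direction. Both were bright only through the control array, where they were higher, so that brightness itself favours a lower value in overexpressing cells.

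Asns makes asparagine from aspartate and glutamine and is a textbook target of ATF4. Its only probe set, 1433966_x_at, of a type that can bind related transcripts, had a log2 signal of 12.57 in overexpressing and 11.83 in control cells. The difference of 0.73 exceeded the within-gene SD of 0.16 at this signal. Of the 1402 genes in the brightest group 41, or 2.92%, differed by as much in either direction and 24 were as high. Over the alternatives of scaling, floor and position in which it was measured, the difference of Asns lay between 0.66 and 0.79. Leaving out the shared and mixed types removes Asns from the data, so its value rests on 1 probe set of such a type.

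Phgdh encodes the first enzyme of serine synthesis from glycolysis, another gene that ATF4 induces. Its brighter probe set had 12.41 in overexpressing and 12.16 in control cells, a difference of 0.24. The other had 10.91 in overexpressing and 10.74 in control cells, a difference of 0.17. Both leaned the same way, by little more than the within-gene SD of 0.16 at this signal or by about as much as it, and 25.2% of bright genes of like signal differed by as much as the brighter one.

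Xbp1 encodes the transcription factor that IRE1 activates by splicing. These 3' probe sets do not separate the spliced from the unspliced mRNA by any label in the annotation used here. The brightest of its 4 probe sets had 12.66 in overexpressing and 12.27 in control cells, a difference of 0.38. The next had 12.25 in overexpressing and 11.71 in control cells, a difference of 0.54. The next dimmer one had 10.93 in overexpressing and 10.28 in control cells, a difference of 0.65, and passed 1.5-fold. The fourth, 1420012_at, the dimmest and the only one not of a shared or mixed type, had 8.37 on each array and a difference of 0.0021. The 3 brighter probe sets, all of shared or mixed type, thus stood higher in overexpressing cells and the fourth was level. Of the 1402 genes in the brightest group 11.1% differed by as much as the brightest Xbp1 probe set, in either direction. The range between them, 0.65, is one that 16.7% of the 90 genes with 4 bright probe sets reached or passed.

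Hspa5 encodes BiP, the HSP70 chaperone of the ER that holds the stress sensors inactive. Its brighter probe set had 13.94 in overexpressing and 13.88 in control cells, a difference of 0.059. Its other had 13.18 in overexpressing and 13.12 in control cells, a difference of 0.063. The 2 values lay 0.0036 apart and were under the spread between probe sets, and under quantile normalization and loess scaling the brighter one was just below 0, at -0.0059 and -0.0049. Hspa5 thus gave no difference that these arrays can resolve.

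Herpud1 encodes an ER membrane protein that helps deliver misfolded proteins for degradation. Its probe set 1448185_at had 8.62 in overexpressing and 8.87 in control cells, a difference of -0.25. Its probe set of mixed type, 1435626_a_at, had 8.60 in overexpressing and 8.25 in control cells, a difference of 0.35. The probe sets gave opposite directions, and their mean was 0.048. Of 1265 genes with 2 bright probe sets 31.5% also had opposite directions, but only 7.11% had a gap as large as that of Herpud1, 0.61. No direction is given for this gene.

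**Figure D2:**
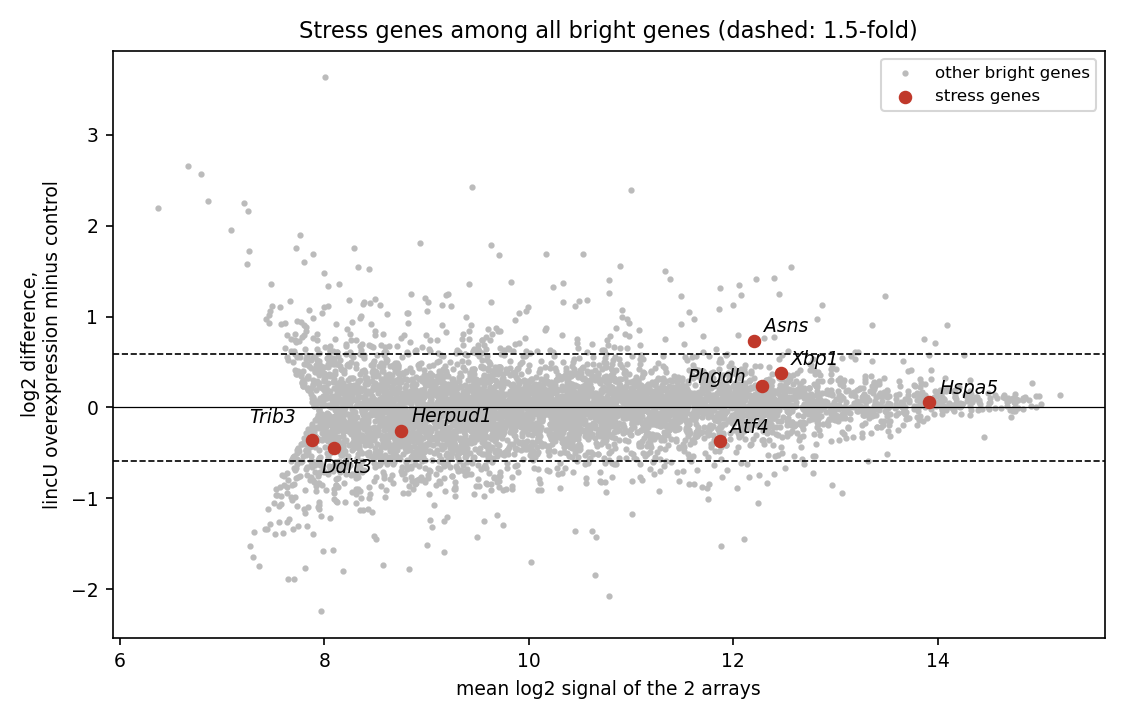
Log2 difference, lincU overexpression minus control (vertical axis), against mean log2 signal of the 2 arrays (horizontal axis), for all bright genes (grey) and the 8 measured stress genes (red, named). Asns alone of the 8 lies past the dashed 1.5-fold lines, at 0.73, and the grey cloud narrows toward high signal.

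On parts of chromosomes 14 and 6 neighbouring genes shared a shift on these arrays, as values below for the neighbours of Dnajc3 and Bcat1 show. Each stress gene was therefore set beside the 20 nearest bright genes on its chromosome, ordered by assembly GRCm38.p6. The neighbours of Asns on chromosome 6 had a median difference of 0.07 and ranged from -1.84 to 0.50, and none of the 20 was as high as Asns. Asns stood at 0.66 with that median subtracted. The neighbours of Atf4 on chromosome 15 had a median of 0.02, and all 20 were higher than Atf4. The neighbours of Xbp1 on chromosome 11 had a median of -0.05, and 1 of 20 was as high as Xbp1. For Trib3, on chromosome 2, the neighbours' median was -0.10 and 15 of 20 were lower in overexpressing cells, and Trib3 stood at -0.25 with that median subtracted. The value of the brightest probe set kept its sign on subtraction in all 8 genes. This includes Hspa5 and Herpud1, for which no direction is given.

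**Figure D3:**
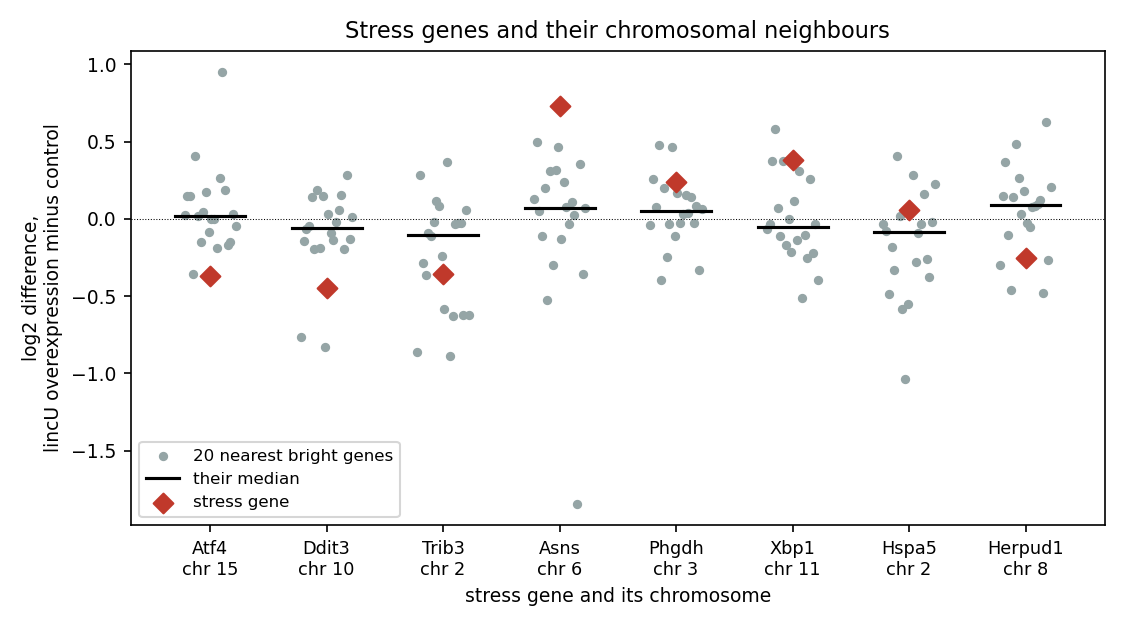
Log2 difference, lincU overexpression minus control (vertical axis), of each measured stress gene (red diamond) and of the 20 nearest bright genes on its chromosome (grey points, in chromosomal order), with the neighbours' median as a black line. Asns, at 0.73, lies above all of its neighbours, and Atf4, at -0.37, below all of its own.

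The wider pathway was described with 9 further lists, of 111 genes, of which 90 were measured and 79 were bright. Of these 79 genes none passed 1.5-fold as higher and 3 passed it as lower, or 3.8%, beside the 4.65% and 6.69% of all bright genes given above. Those shares were not matched for signal. The 3 were Eif2ak4, Ddit4 and Dnajc3. The median over the 79 was -0.016, so the lists as a whole lay at the level of all bright genes.

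Among the eIF2α kinases and phosphatase subunits, 1 of 5 bright genes was counted, as lower. It was Eif2ak4, which encodes GCN2, the kinase that senses amino acid shortage, with 7.56 in overexpressing and 8.47 in control cells, a difference of -0.91. It was bright through the control array alone, and its value rests on 1 probe set of shared or mixed type. Ppp1r15a, which encodes GADD34, the stress-induced subunit that directs dephosphorylation of eIF2α, had a difference of 0.26, and its constitutive counterpart Ppp1r15b one of -0.10. Eif2ak3, which encodes PERK, did not reach the floor on either array, with 3.71 in overexpressing and 5.17 in control cells.

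The list of ATF4 partners and feedback genes had a median of -0.22 over 9 measured genes, and of -0.17 over its 6 bright ones. All 6 of its bright genes were lower in overexpressing cells, or 5 of 6 under each of the 3 other scalings, and 1 was past 1.5-fold, while of all bright genes 50.2% were higher. Ddit4, which encodes REDD1, an inhibitor of mTORC1, had 9.64 in overexpressing and 10.54 in control cells, a difference of -0.90, or 1.87-fold lower. Cebpb, which encodes a C/EBP partner of ATF4, had 10.12 in overexpressing and 10.66 in control cells, a difference of -0.54, with a second bright probe set at -0.46. Cebpg, a further C/EBP partner gene, had a difference of -0.22, and its neighbours on chromosome 7 a median of -0.25. Nupr1, with a difference of -0.12, had a second bright probe set at 0.27. Sesn2 and Atf5 differed by -0.10 and -0.04. Cebpg, Nupr1, Sesn2 and Atf5 each differed by less than the within-gene SD of 0.23. Under each of the 3 other scalings the median of this list stayed below 0.

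ATF4 is known to induce many genes for amino acid synthesis, amino acid uptake and tRNA charging. These 3 lists held 12, 6 and 15 bright genes, and none of them passed 1.5-fold. Of all bright genes 4.65% passed it as higher and 6.69% as lower. These shares depend on signal. In the brightest of the 4 groups of bright genes they were 2.28% and 2.14%, and in the dimmest 8.13% and 14.6%. The lists were not matched for signal, and their difference from these shares was not tested. Amino acid synthesis and one-carbon enzymes had a median of 0.03 over 12 genes, 7 higher and 5 lower. In this list Cbs, the transsulfuration enzyme gene, had a difference of -0.48 and was bright through the control array alone, Bcat1, a branched-chain aminotransferase gene, one of 0.40, and the glutamine synthetase gene Glul one of 0.29. Bcat1 lay among neighbours on chromosome 6 with a median of 0.31 and stood at 0.09 with that subtracted. Psph, which encodes the last enzyme of the serine pathway that Phgdh opens, had 10.59 in overexpressing and 10.45 in control cells, a difference of 0.14. Psph was added for that link, outside the naming rule.

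Amino acid transporters had a median of -0.04 over 10 genes, which turned to 0.02 with the array medians centred, and 3 of 6 bright ones were lower. Slc38a1, a glutamine transporter gene of the system A family, had 9.50 in overexpressing and 10.01 in control cells, a difference of -0.51. Slc3a2, which encodes the heavy chain shared by several amino acid exchangers, had a difference of -0.36, and the glycine transporter gene Slc6a9 one of 0.25. Cytosolic aminoacyl-tRNA synthetases had a median of 0.04 over 16 genes, and 10 of 15 bright ones were higher, or 9 to 11 of 15 under other scalings. Of all bright genes 50.2% were higher, and this difference was not tested. Wars and Farsb, counted as higher at 0.05 and 0.04, had other bright probe sets down to -0.65 and -0.28. The largest differences among the bright ones were Farsa, for phenylalanine, at -0.48, Vars, for valine, at -0.32 and Aars, for alanine, at 0.25. Of the bright genes of the 9 lists Aars, Gars, for glycine, and Nupr1 held TGATGNAA in their promoters as Asns did, and they differed by 0.25, -0.13 and -0.12 where Asns differed by 0.73. Across all 98 bright genes with this core, 8 passed 1.5-fold as higher, or 8.16%, and 10 as lower, or 10.2%, with a median of -0.05. Among the 4537 bright genes whose promoter lacked it these shares were 4.45% and 6.46%, and this difference was not tested.

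**Figure D4:**
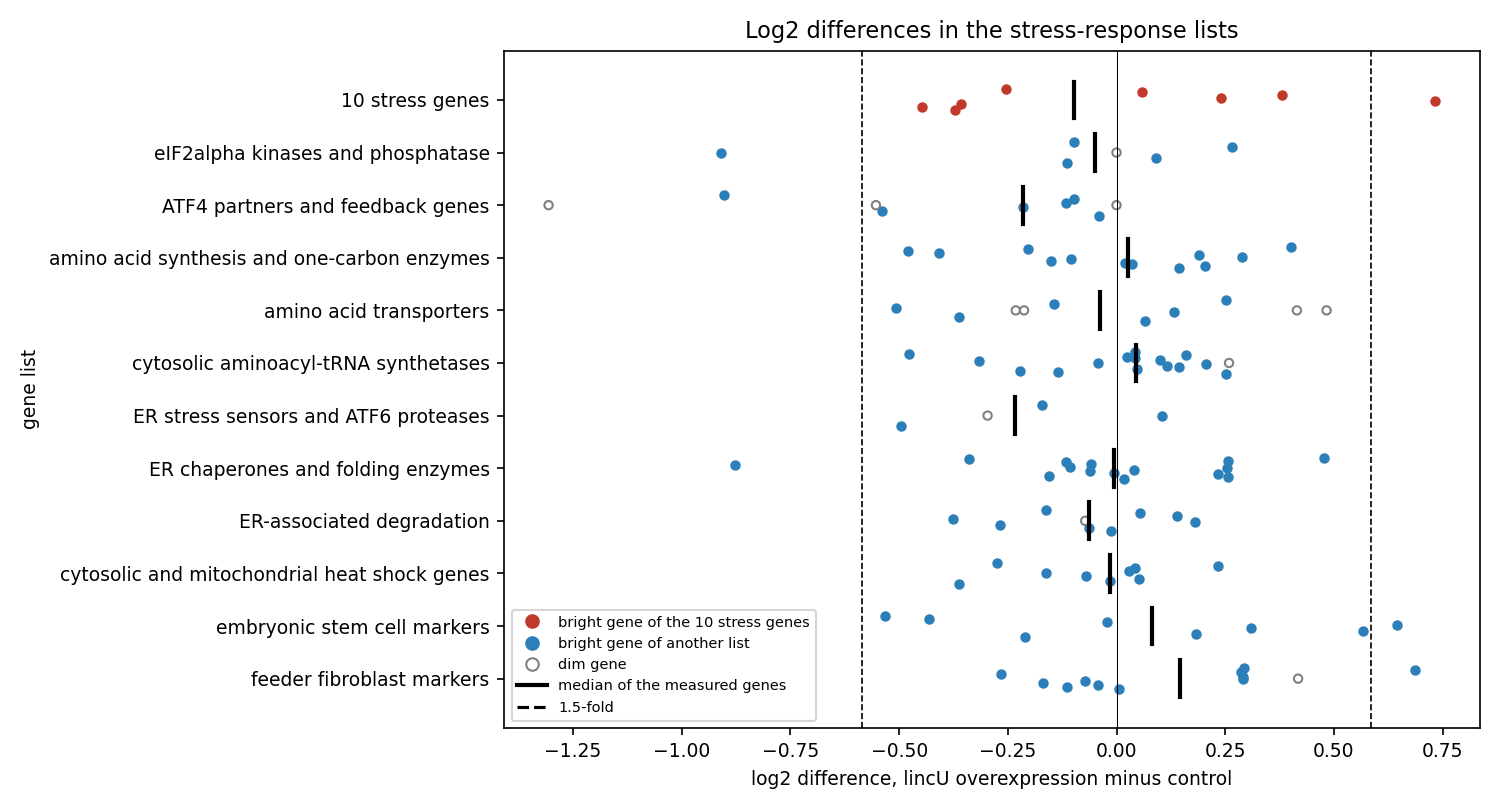
Log2 difference, lincU overexpression minus control (horizontal axis), of every measured gene in the 10 stress genes, the 9 further pathway lists and the 2 marker lists (rows). Filled points are bright genes, open points dim ones, black bars the median of the measured genes and dashed lines 1.5-fold. Asns is the only bright pathway gene past the line on the higher side, and Eif2ak4, Ddit4 and Dnajc3 the bright ones past it on the lower side.

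On the ER side, the sensor gene Atf6 had 8.24 in overexpressing and 8.74 in control cells, a difference of -0.50, and its relative Atf6b had one of 0.10. Ern1, which encodes IRE1, was under the floor in overexpressing cells, at 3.75, and just above it in control cells, at 5.95. ER chaperones and folding enzymes had a median of -0.0068 over 15 genes, all bright, 7 higher and 8 lower, and the sign of that median turned with the array medians centred, at 0.05. The HSP90 of the ER, Hsp90b1, added outside the naming rule, had 13.83 in overexpressing and 13.82 in control cells. Dnajc3, which encodes the co-chaperone p58IPK, an inhibitor of PERK, was the only one past 1.5-fold, with 8.84 in overexpressing and 9.72 in control cells, a difference of -0.88, and a second bright probe set at -0.69. Its neighbours on chromosome 14 had a median of -0.68, and with that subtracted Dnajc3 stood at -0.19. The oxidase genes Ero1b and Ero1a, which re-form disulfide bonds through protein disulfide isomerase, had differences of 0.48 and -0.34. Ero1b was bright through the overexpression array alone. Genes of ER-associated degradation had a median of -0.06 over 9 genes, which was 0.0032 after loess scaling, and none of 8 bright ones passed 1.5-fold. There Edem1, which encodes a lectin for misfolded glycoproteins, had a difference of -0.38, or -0.66 with the median of its neighbours on chromosome 6 subtracted.

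The ER stress response element found in the Hspa5 promoter gives a group of genes chosen by sequence and then by brightness, which depends on the signals themselves. The element was in the promoters of 12 bright genes, 8 of which belong to the 10 stress genes or the pathway lists. Their elements are set side by side, with the fixed letters in capitals and the 9 spacer bases in lower case. Build, position and strand are of the element itself in GRCm38.p6.
Hspa5, chr2:34772025-34772043, plus strand: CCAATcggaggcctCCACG
Hsp90b1, chr10:86705533-86705551, plus strand: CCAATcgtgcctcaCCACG
Hsp90b1, chr10:86705638-86705656, minus strand: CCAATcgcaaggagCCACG
Calr, chr8:84847075-84847093, plus strand: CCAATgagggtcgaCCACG
Canx, chr11:50325800-50325818, minus strand: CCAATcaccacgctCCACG
Pdia6, chr12:17266491-17266509, plus strand: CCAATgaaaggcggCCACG
Dnajc3, chr14:118937827-118937845, plus strand: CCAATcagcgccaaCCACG
Ero1b, chr13:12565682-12565700, minus strand: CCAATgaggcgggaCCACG
Syvn1, chr19:6046532-6046550, plus strand: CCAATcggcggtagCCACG

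These 8 genes share the fixed letters and differ in the spacer, and their differences between the arrays spread to both sides of 0. Besides Hspa5 at 0.059, Dnajc3 at -0.88 and Ero1b at 0.48, the lectin chaperone genes Calr and Canx differed by 0.26 and -0.15, the disulfide isomerase gene Pdia6 by -0.06, Hsp90b1 by 0.016 and Syvn1, the ubiquitin ligase gene of ER-associated degradation, by -0.012. A second bright probe set of Calr stood at -0.19, and the bright probe sets of Canx ranged from -0.21 to 0.055. No direction is given for Calr or Canx. The other 4 bright genes with the element were Alg12 at 1.95, Acacb at 0.19, Pan2 at 0.0089 and Adcy3 at -0.93. Alg12, whose product adds mannose to N-glycan precursors in the ER, had 8.07 in overexpressing and 6.11 in control cells and was bright through the overexpression array alone. Adcy3, an adenylate cyclase gene, had 7.80 in overexpressing and 8.74 in control cells and was bright through the control array alone. Of the 12 genes 7 were higher and 5 lower, 1 and 2 of them past 1.5-fold, beside 4.65% and 6.69% of all bright genes, and their median was 0.01, against 0.0015 for the 4623 bright genes whose promoter lacked the element. The 5 bright genes with element II, Herpud1 among them, had a median of 0.0070, and none passed 1.5-fold.

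Heat shock genes of the cytosol and mitochondria answer unfolded protein outside the ER. Their median was -0.02 over 9 genes, all bright, turning to 0.04 with the array medians centred, and none passed 1.5-fold. As deposited 4 were higher and 5 lower, and after loess scaling 1 was higher and 8 lower. The largest differences were Hspa1b, an inducible HSP70, at -0.36, the co-chaperone gene Bag3 at -0.27 and the small heat shock protein gene Hspb1 at 0.23.

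The labelled cell type was checked on its markers. Of 9 embryonic stem cell markers 8 were measured, all bright, with Pou5f1 at 13.34 in overexpressing and 13.55 in control cells, and their linear signals summed to 93801 in overexpressing and 89475 in control cells. Of 15 feeder fibroblast markers 12 were measured, and 11 were bright. Their linear signals summed to 28155 in overexpressing and 27167 in control cells, and none of them was at 0 on either array. This sum is weighted toward Vim and Fn1, at log2 signals of 13.27 and 13.01 in overexpressing cells. The next highest feeder marker there was Acta2, at 11.56. The part of feeder RNA in the differences of the stress genes was not tested, and in such bulk RNA fewer cells of a type and less RNA per cell cannot be told apart. The platform annotation names no probe set lincU, and whether the RNA was raised in the overexpressing cells could therefore not be checked.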

How the data were processed

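Per the labels' protocols, total RNA of each group was turned into biotin-labelled cRNA with a 3' IVT kit, and 1 array was run for each. The table deposited by the authors holds a log2 signal for every probe set on either array, with maxima of 15.26 in overexpressing and 15.13 in control cells. The log2 scale was read from this range. MAS5 and affy are named, without role or order, in the submitters' processing notes, and no scaling target is stated. Detection calls were not used here.

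Probe sets were named through the platform annotation and symbols updated by gene ID with RefSeq GRCm38.p6. Of 16994 probe sets, 64 were controls, 15273 had 1 gene name, of which 15252 matched RefSeq, 501 had several and 1156 none. Values were compared as deposited. Signals below a floor, the 25th percentile over named probe sets of that array, 5.65 in overexpressing and 5.73 in control cells, were raised to it, and a gene under it on both arrays was given a difference of 0. Having 1 array for each group, the data allow no test or error estimate between groups, and this number limits the precision. The counting rule was tested on simulated arrays.

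The 10 genes, the lists and the thresholds were chosen with earlier results of these data known. The text names the 10 genes and, from each other list, up to 3 bright genes of largest difference whose other bright probe sets have the same sign. Psph, Hsp90b1, Nupr1, Sesn2, Atf5, Gars, Wars, Farsb, Eif2ak3, Ern1, Pou5f1 and the genes described by a promoter motif or as dim were added after their values were seen. For the marker lists the genes of largest difference were Esrrb, Nanog and Lin28a, at 0.65, 0.57 and -0.53, and Pdgfrb, Prrx1 and Postn, at 0.69, 0.29 and 0.29. Esrrb and Lin28a had second bright probe sets at 0.17 and -1.45. The neighbours of Nanog on chromosome 6 had a median of 0.34. Of the 11 bright feeder markers 6 were higher and 5 lower in overexpressing cells, with a median of 0.0058. The alternatives were 3 other scalings, 3 treatments of the floor, 3 choices of probe set, subtraction of the neighbours' median, other brightness rules and a 2-fold threshold. Python 3.11.15, pandas 2.3.3 and statsmodels 0.14.6 were used.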

Additional observations from a re-analysis of the deposited data

How the results depend on the processing

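No paired analysis was possible because each group has 1 array. Without a replicate spread, a log2 difference or median was taken to have moved if it changed by more than the within-gene SD of 0.23, and a count of genes if it changed by more than 1.5 times. The count of stress genes at least 1.5-fold higher was 1, and it was 0 when shared and mixed probe set types were dropped, which leaves 4 of the 8 genes and not Asns, and 0 at 2-fold. It was 1 under every other alternative run, and the count at least 1.5-fold lower was 0 under all. The median of the stress genes lay between -0.31, without shared or mixed types, and 0.05, with probe sets averaged, and no list median moved by more than the SD. Among single stress genes, Xbp1 stood at 0.0021 without shared or mixed types, and Herpud1 at 0.048 with probe sets averaged. Over all values for single genes and all-gene counts 402 kept within these limits, 20 moved and 2 reversed. Those reversed were of the feeder marker Pdgfrb, at -0.15 with probe sets averaged and -0.98 without shared or mixed types. Counts over all genes at 1.5-fold, 261 higher and 375 lower, were 526 and 870 with no brightness rule, 99 and 100 with brightness at the 75th percentile, and 86 and 73 at 2-fold. Dim signal limits Ddit3, Trib3 and Herpud1, where probe sets of a gene vary most.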

Other observations

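Among the pathway genes that were dim on both arrays, a few had differences of some size, and these were picked after their values were seen. Stc2, a secreted glycoprotein gene that ATF4 induces, had a log2 signal of 5.29 in overexpressing cells, under the floor, and 6.96 in control cells, a difference of -1.31 that depends on where the floor is set. Vldlr, a lipoprotein receptor gene that ATF4 induces, had 6.54 in overexpressing and 7.09 in control cells, a difference of -0.55. In the other direction the glutamine transporter gene Slc1a5 had 7.70 in overexpressing and 7.22 in control cells, a difference of 0.48. The cystine transporter gene Slc7a11 had 6.14 in overexpressing cells and 4.68, under the floor, in control cells. Fgf21 had signals below the floor everywhere, 2.71 in overexpressing and 2.40 in control cells.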
